A study of Mus musculus with 40 samples.

Results

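The data described here compare 4 *Kat6b* null embryos with 4 wild-type (WT) embryos at embryonic day 9.5 (E9.5), 8 of the 40 libraries of the study, chosen by their genotype and stage labels. The null embryos were WT at *Kat6a* and labelled dec/dec at *Kat6b*, an allele that the methods of the study describe as lacking exons 2 to 12, and the WT embryos were WT at both genes. The study kept both null strains on a C57BL/6 background. Each library was made from 1 whole embryo of undissected tissue and was counted by bulk RNA sequencing. Embryos were selected by similar external appearance. In whole embryos, fewer cells of a type and less RNA per cell cannot be told apart. The 4 embryos of each genotype came from 4 litters, and WT replicate 3 and *Kat6b* null replicate 2 were littermates. No other litter held embryos of both genotypes, so effects of genotype and of litter cannot be fully told apart. WT replicate 1 was a littermate of a *Kat6a* null embryo, and WT replicate 2 of an embryo homozygous for a *Kat6a* point mutation. These WT embryos thus came from litters with other mutant alleles, and effects of the mutant line cannot be fully told apart from genotype either. The comparison asks which genes depend on KAT6B in the early organogenesis embryo. Homozygous *Kat6b* point mutants (*Kat6b* E/E, glycine to glutamic acid in the acetyltransferase domain, WT at *Kat6a*) and *Kat6a* null embryos (an allele lacking exons 3 to 7, WT at *Kat6b*) of the same stage, 4 of each, served as comparisons at the end. Each of these groups held 1 pair of littermates, and neither shared a litter with the *Kat6b* null embryos. In those comparisons genotype and litter cannot be told apart.

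KAT6B, also called MORF or Querkopf, is a lysine acetyltransferase of the MYST family. It works in a chromatin complex with a BRPF scaffold protein, an ING reader protein and MEAF6, and its close relative KAT6A uses the same partners. The protein is best known for its part in the development of the cerebral cortex, adult neural stem cells and the skeleton, and mutations of the human gene cause developmental syndromes with intellectual disability.

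Several libraries stood apart before any gene was compared. *Xist*, the long non-coding RNA of the inactive X chromosome, read 618 CPM (counts scaled to library size) in *Kat6b* null replicate 2 and 739 CPM in *Kat6b* null replicate 3, and at most 0.169 CPM in the other 6 libraries of this comparison. The summed Y-linked genes read 0.051 and 0.182 CPM in these 2 libraries and between 143 and 175 CPM in the other 6. The study describes all the embryos as male, and the sex-linked RNA of 2 of the 4 null libraries goes against that. Among all 24 E9.5 libraries, *Kat6a* null replicate 2 also carried *Xist* (526 CPM). The counts of called genes, the calls of single genes and the medians of gene lists were therefore also computed without these 3, and the main changes are given below. *Kat6b* null replicate 3 also read 14990 CPM for the summed primitive erythroid genes, the haemoglobin and haem synthesis genes of yolk-sac derived red cells, against 4437 to 6934 CPM in the other 7 libraries. WT replicate 4 read 402 CPM for the summed visceral endoderm and liver genes, against 190 to 208 CPM in the other 7. The libraries held 11823454 to 19078839 counts in WT and 8401990 to 21929384 in *Kat6b* null. The dependence of counts on GC content also varied. It was read over 11486 genes as a slope on transcript GC content, per 10% GC. The slope was that of log2 CPM less the mean of each gene over all 24 E9.5 libraries, so its sign is relative to those libraries. It was 0.047, 0.057, 0.033 and -0.0051 in the 4 WT libraries and 0.012, -0.031, -0.018 and -0.11 in the 4 null libraries.

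**Figure D1:**
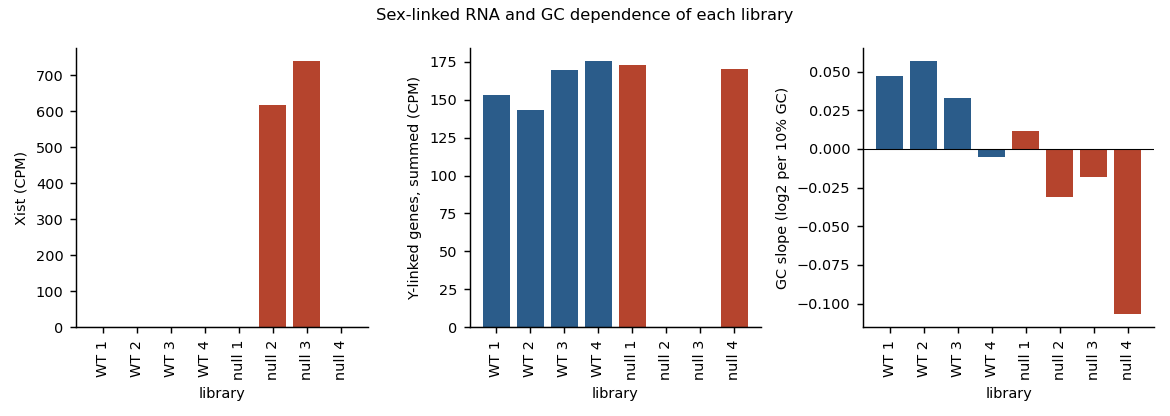
Bars show *Xist* (CPM), summed Y-linked genes (CPM) and the GC slope (log2 per 10% GC) for the 4 WT (blue) and 4 *Kat6b* null (red) libraries. The slope is that of log2 CPM, less the mean of each gene over the 24 E9.5 libraries, on transcript GC content. *Xist* appears in null 2 and null 3, at 618 and 739 CPM, where the Y-linked genes are near 0; the GC slope is lowest in null 4, at -0.11.

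The targeted gene was read first. *Kat6b* lies on the plus strand of chromosome 14 (chr14:21531502-21722546, GRCm39), and its canonical transcript has 17 exons and 7372 bases. Numbered on this transcript, exons 2 to 12 (chr14:21566694-21687708) hold the start codon, 2005 bases (27.2%) of the transcript and 33.2% of its coding sequence, so 5367 bases (72.8%) remain countable in the null allele. Counts over the whole gene do not distinguish the 2 parts, so they cannot check the deletion. *Kat6b* read 42.6, 38.2, 42.6 and 38.3 CPM in the 4 WT libraries and 54.5, 52, 53.1 and 58.3 CPM in the 4 *Kat6b* null libraries. All 4 null libraries lay above the highest WT library (log2 fold change 0.41, SE 0.0651, FDR=0.00441). Divided by 7372 bases in WT and by the 5367 retained bases in the null, the level was 5.19 to 5.78 CPM per kilobase in WT and 9.69 to 10.9 CPM per kilobase in *Kat6b* null, a calculation that takes null transcripts to hold exactly the retained exons. *Kat6a*, the paralogue, read 180, 169, 186 and 168 CPM in WT and 161, 182, 184 and 196 CPM in *Kat6b* null, with overlapping groups (log2 fold change 0.03, SE 0.0893, FDR=0.936). The first exon after the deletion is exon 13, whose first 60 bases (GRCm39 chr14:21710811-21710870, plus strand) are shown because counts of a null transcript beyond exon 1 come from here onward.
Kat6b exon 13: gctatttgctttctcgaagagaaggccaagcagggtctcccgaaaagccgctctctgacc

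Of 14183 protein-coding genes tested, 72 (0.508%) differed between *Kat6b* null and WT at FDR<0.05, the Benjamini-Hochberg adjusted p of a limma model fitted across all genes. In the null 48 (0.338%) were lower and 24 (0.169%) higher. Log2 fold changes come from this model, which adjusts for 4 surrogate variables, that is for estimated hidden factors. The printed CPM are not adjusted in this way, so a fold change can differ from that of the CPM beside it. The median log2 fold change was -0.29 for the lower and 0.32 for the higher genes, and only 6 of the 72 changed by more than 1.5-fold. Over all genes tested the median was 0.00054, and at an unadjusted p under 0.05 there were 920 (6.49%) lower and 793 (5.59%) higher genes. The CPM values of the 2 groups did not overlap for 52 of the 72, while 937 (6.61%) of all genes tested had non-overlapping groups, 488 (3.44%) with every null library lower and 449 (3.17%) with every null library higher. The 72 were selected by their p in these same libraries, so their larger share is no separate support.

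The 48 lower genes included 8 of cytoplasmic ribosomal proteins, 3 of tubulins and 2 of actins and actin-binding proteins. The 24 higher genes included *Kat6b* itself, the Wnt pathway genes *Wnt5a* and *Rspo3*, *Hoxc9*, and 2 genes of the list of cold-inducible and splicing factors. Of the 72 genes, 28 belonged to 1 or more of 37 gene lists for pathways, complexes and cell types, and 15 lists held a called gene. The summed CPM of null and WT libraries did not overlap for 5 of the 37 lists, 4 lower and 1 higher in the null. The lists were drawn up with earlier results of these data known, so their counts are descriptions. Over all genes tested, 0.338% were called lower and 0.169% higher, and 6.49% were lower and 5.59% higher at an unadjusted p under 0.05. These shares stand beside the counts of every list below.

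The calls depended on the model and on single libraries, while no called gene changed direction under any alternative that gave it a value (DESeq2 gave one for 67 of the 72). All alternatives used the same libraries or part of them, so a kept direction is no separate support. With no surrogate variable, that is with no estimated hidden factor, limma called 0 genes (1297 at an unadjusted p under 0.05) and edgeR's quasi-likelihood test 0 (1173), although all 72 kept their direction in both. With 4 surrogate variables, as in the model reported here, edgeR's quasi-likelihood test called 82 genes and DESeq2 154. Without WT replicates 1, 2, 3 and 4 in turn, 29, 12, 47 and 11 of the 72 were still called, and without *Kat6b* null replicates 1, 2, 3 and 4 the numbers were 64, 46, 15 and 17. Only 7 were called in all 8 of these fits: *Tubb2b*, *Ube2s*, *Rplp2* and *Tubb2a* among the lower genes and *Kat6b*, *Rbm3* and *Hmgb1* among the higher. Without the 3 libraries with *Xist*, 44 genes were called in all, 34 lower and 10 higher, of which 20 were among the 72, and the direction of all 72 was kept. Among these 20 were *Kat6b*, *Tubb2b*, *Tubb2a*, *Ube2s*, *Rplp2*, *Rpl14*, *Rpl35*, *Rpl37a*, *Myl6*, *Tle5*, *Metrn*, *Wnt5a*, *Arvcf*, *Cadm4*, *Faap20*, *Igdcc3*, *Krcc1*, *Mfap2* and *Mn1*, and each other gene described as called below was not called without these libraries. *Hmgb1* had FDR=0.0582 there. With counts adjusted for GC content, 30 genes were called, 25 of them among the 72, again with all 72 in the same direction. Among these 25, the lower genes included *Tubb2b*, *Tubb2a*, *Ube2s*, *Rplp2*, *Rpl14*, *Rpl38*, *Rpl37a*, *Rpl23a*, *Myl6*, *Ndufa3*, *Nppb*, *Rasl2-9*, *Timm23* and *Glrx3*. The higher genes were *Kat6b*, *Rbm3*, *Hmgb1*, *Wnt5a*, *Rspo3*, *Hoxc9*, *Trim7*, *Gm14326*, *Anp32b* and *Arfgap3*. No other gene described below as called against WT was called after this adjustment. The log2 fold change of *U2surp* was 0.08 there (FDR=0.457).

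**Figure D2:**
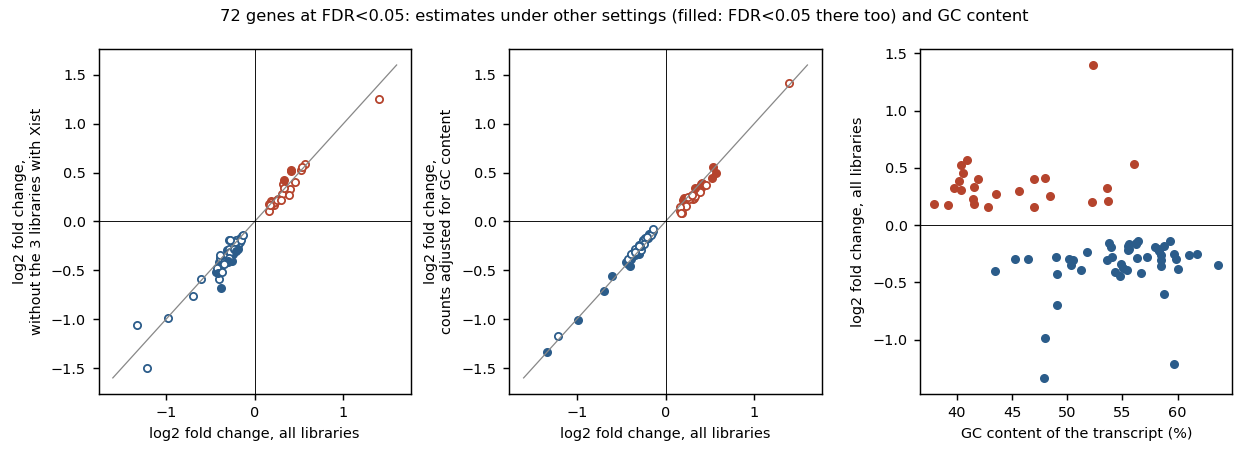
The first panels plot the log2 fold change of the 72 called genes with all libraries (x axis) against that without the 3 libraries with *Xist* and against that after adjustment for GC content (y axes); filled points are called in both fits, 20 and 25 genes. The last panel plots the log2 fold change against the GC content of the transcript (%): lower genes (blue) have a median of 55.5% GC and higher genes (red) 42.4%.

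Lower and higher genes also differed in the composition of their transcripts. The canonical transcripts of the lower genes had a median GC content of 55.5% and a median length of 1982 bases, those of the higher genes 42.4% and 3252 bases, and all genes tested 50.6% and 3504 bases. No test was made of this difference. Promoters were read from RefSeq on GRCm38.p6 as the 250 bases upstream of the start, and 58 of the 72 genes had one. The dinucleotide CG occurred a median of 18 times in the 41 promoters of lower genes, 26 times in the 17 of higher genes and 15 times in 11297 promoters of all genes tested. On either strand CCAAT was present in 41.5%, 47.1% and 36.7% of these promoters, TATAAA in 14.6%, 0% and 6.47%, and GGGCGG, which itself contains a CG, in 63.4%, 76.5% and 59.1%. Promoters of 3 genes that were called in all 8 fits without 1 library are shown, 2 of lower genes (*Rplp2* and *Tubb2a*) and 1 of a higher gene (*Hmgb1*), with CG in capitals. They lie at chr7:141447401-141447650 (plus strand), chr13:34078009-34078258 (minus strand) and chr5:149053058-149053307 (minus strand) and hold 24, 22 and 19 CG dinucleotides. The *Tubb2a* sequence holds 1 TATAAA, and the *Hmgb1* sequence 3 matches to CCAAT.
Rplp2: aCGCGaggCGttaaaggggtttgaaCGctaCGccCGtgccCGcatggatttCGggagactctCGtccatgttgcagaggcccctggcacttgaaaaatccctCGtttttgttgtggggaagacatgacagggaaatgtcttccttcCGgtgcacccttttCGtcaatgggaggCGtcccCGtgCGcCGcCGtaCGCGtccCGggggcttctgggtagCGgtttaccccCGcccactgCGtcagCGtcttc
Tubb2a: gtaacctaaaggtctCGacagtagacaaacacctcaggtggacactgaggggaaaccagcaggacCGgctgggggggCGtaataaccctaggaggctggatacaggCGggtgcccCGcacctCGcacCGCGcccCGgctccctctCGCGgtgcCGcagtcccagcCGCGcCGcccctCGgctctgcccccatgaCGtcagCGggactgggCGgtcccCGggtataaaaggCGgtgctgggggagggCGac
Hmgb1: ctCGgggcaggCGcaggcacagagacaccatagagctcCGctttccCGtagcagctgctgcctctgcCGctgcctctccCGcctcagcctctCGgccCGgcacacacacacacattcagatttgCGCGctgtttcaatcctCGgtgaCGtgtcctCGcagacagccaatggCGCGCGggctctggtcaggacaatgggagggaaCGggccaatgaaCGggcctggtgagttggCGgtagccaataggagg

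Cytoplasmic ribosomal protein genes were the class with the most called members. Of 83 tested, 8 (9.64%) were lower in the null and 0 higher, against 0.338% and 0.169% of all genes, and the median log2 fold change was -0.12. At an unadjusted p under 0.05, 38 of the 83 were lower and 0 higher, while 24 had every null library below and 3 every null library above every WT library, against 3.44% and 3.17% of all genes. The summed level of the list was 21040 to 21930 CPM in WT and 20580 to 21600 CPM in *Kat6b* null, with overlap. *Rplp2*, a protein of the acidic stalk that recruits elongation factors (chr7:141027274-141034167), read 106, 106, 92.2 and 93.2 CPM in the 4 WT libraries and 81.7, 74.5, 77.8 and 65.3 CPM in the 4 *Kat6b* null libraries. Every null library lay below every WT library (log2 fold change -0.44, SE 0.0704, FDR=0.00441), and the gene was called in 8 of 8 fits that each left out 1 library, with the highest FDR, 0.0398, without WT replicate 2. *Rpl14*, a protein of the large subunit, read 229, 238, 227 and 222 CPM in WT and 191, 196, 194 and 169.9 CPM in *Kat6b* null. Its groups did not overlap either (log2 fold change -0.31, SE 0.0554, FDR=0.013), and it was called in 6 of 8 fits that each left out 1 library, with the highest FDR, 0.0703, without WT replicate 2. The steepest changes of the class were those of *Rpl23a* and *Rpl38*, 2 further proteins of the large subunit. *Rpl23a* read 20.9, 26.1, 24.2 and 22 CPM in WT and 19.3, 17.4, 14.6 and 12.2 CPM in *Kat6b* null (log2 fold change -0.69, SE 0.131, FDR=0.0191). *Rpl38*, which is known for its role in translating *Hox* mRNAs, read 15.4, 16.4, 15.2 and 16.6 CPM in WT and 14.6, 12, 9.74 and 9.17 CPM in *Kat6b* null (log2 fold change -0.60, SE 0.117, FDR=0.0191). Both had groups that did not overlap, with null replicates 3 and 4 the lowest, and neither was called without *Kat6b* null replicate 3 (FDR=0.11 and FDR=0.125). *Rpl37a*, *Rpl6* and *Rpl35*, also of the large subunit, fell, with log2 fold changes of -0.40 (FDR=0.0191), -0.28 (FDR=0.0316) and -0.42 (FDR=0.0316).

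The number of called ribosomal protein genes was 0 with no surrogate variable, that is with no estimated hidden factor, and 6 after adjustment for GC content. In the fits without 1 library it was from 1 to 11, lowest without WT replicate 2. Without the 3 libraries with *Xist* it was also 8, but these were not the same 8 genes. *Rpl38* (FDR=0.0617), *Rpl23a* (FDR=0.131) and *Rpl6* (FDR=0.0754) were not called there. Mammalian ribosomal protein genes have many processed pseudogenes, and read pairs from such copies can be split or lost in counting. For 62 of the 83 genes at least 20% of the canonical transcript was present at 98% identity or more elsewhere in GRCm39, in stretches of 66 bases or more. These 62 included 7 of the 8 called genes and had a median log2 fold change of -0.17, while the other 21 had a median of -0.03 with 17 of 21 below 0. The level of the called genes with copies is therefore uncertain. The part of sequence copies in the difference was not tested. Mitochondrial ribosomal proteins had 0 called of 78 tested by limma (3 lower and 2 higher at an unadjusted p under 0.05) and a median of -0.02, with -0.03 without WT replicate 3.

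Respiratory chain subunits had 1 called gene of 76, *Ndufa3*, a subunit of complex I. It read 29.9, 35.7, 32 and 33.2 CPM in WT and 29.1, 26.4, 24.2 and 23.9 CPM in *Kat6b* null, without overlap (log2 fold change -0.39, SE 0.0813, FDR=0.0232), and its FDR was 0.174 without *Kat6b* null replicate 3. The called share of 1.32% stands against 0.338% of all genes called lower. Of the 76 genes, 64 had a negative log2 fold change, with a median of -0.09. At an unadjusted p under 0.05, 27 were lower and 0 higher, against 6.49% and 5.59% of all genes. Every null library lay below every WT library for 10 and above for 1, against 3.44% and 3.17% of all genes. Translation initiation and elongation factors had 0 called of 43, with 8 lower and 11 higher at an unadjusted p under 0.05 and a median of 0.01, with 0.04 without WT replicate 4. For 17 of the 72 called genes at least 20% of the transcript has near-identical copies. Besides ribosomal protein genes, they include *Timm23*, which imports proteins into mitochondria, *Ube2s*, *Ppia*, *Actg1*, *Myl6* and *Rbm3*. The same uncertainty holds for them.

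Of 15 tubulin genes tested, 3 were called lower and 0 higher, against 0.338% and 0.169% of all genes. At an unadjusted p under 0.05, 6 were lower and 0 higher, against 6.49% and 5.59% of all genes. The summed level of the list was 7587 to 7936 CPM in WT and 7317 to 7536 CPM in *Kat6b* null, without overlap. The median log2 fold change was -0.08, and -0.14 without the 3 libraries with *Xist*. *Tubb2b*, a beta-tubulin of migrating and differentiating neurons that is mutated in human cortical malformations (chr13:34307245-34315143), read 388, 400, 377 and 315.2 CPM in WT and 271, 282, 314.8 and 250 CPM in *Kat6b* null. The groups met but did not overlap, WT replicate 4 and null replicate 3 differing by less than 1 CPM, and the gene had the smallest p of the comparison (log2 fold change -0.30, SE 0.0427, FDR=0.00321). It was called in 8 of 8 fits that each left out 1 library, with the highest FDR, 0.0228, without WT replicate 1. *Tubb2a*, its neighbour on the same strand of chromosome 13 (chr13:34257549-34261998), read 139, 150.2, 129.5 and 109.9 CPM in WT and 113, 94.2, 109.9 and 84.1 CPM in *Kat6b* null (log2 fold change -0.34, SE 0.0577, FDR=0.00474). Here null replicate 1 lay above WT replicate 4, so the groups overlapped. *Tubb3*, the beta-tubulin of newborn neurons, read 119, 136, 119.8 and 69.7 CPM in WT and 65.3, 59.9, 95.7 and 51.7 CPM in *Kat6b* null. WT replicate 4 lay among the null libraries and null replicate 3 above it (log2 fold change -0.41, SE 0.084, FDR=0.0316), and the call of *Tubb3* was kept in 1 of 8 fits without 1 library. With no surrogate variable the log2 fold change of *Tubb3* was -0.66 (FDR=0.467). Of its transcript *Tubb2b* shared 18.4% with near-identical copies and *Tubb2a* 45.8%.

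Of 42 genes of early neurons tested, *Tubb3* and *Dpysl4* were called lower and 0 were called higher. At an unadjusted p under 0.05, 13 were lower and 1 higher, against 6.49% and 5.59% of all genes. A negative log2 fold change was found in 37, and the median was -0.18. That median was -0.29 without WT replicate 4 and -0.32 without the 3 libraries with *Xist*. *Dpysl4*, a collapsin response mediator of growing axons, read 62.2, 64.7, 58.7 and 50.9 CPM in WT and 41.8, 42.6, 50.2 and 37.4 CPM in *Kat6b* null, with all null libraries below all WT libraries (log2 fold change -0.29, SE 0.0659, FDR=0.043). The call of *Dpysl4* was kept in 1 of 8 fits without 1 library, with the highest FDR, 0.127, without *Kat6b* null replicate 3. The summed level of the list was 1530 to 2055 CPM in WT and 1372 to 1821 CPM in *Kat6b* null, so the groups overlapped, with WT replicate 4 and null replicate 3 on the other group's side. Neural progenitor genes had 1 called of 44, *Vim*, the intermediate filament of neural progenitors and of mesenchyme, at 706, 745, 692 and 569.9 CPM in WT and 562, 537, 627 and 518 CPM in *Kat6b* null (log2 fold change -0.19, SE 0.0419, FDR=0.0316). WT replicate 4 lay within the null range. The progenitor list had 37 of 44 genes with a negative log2 fold change and a median of -0.15, and 12 of its genes had every null library below every WT library, against 3.44% of all genes. Its summed level was 5054 to 5253 CPM in WT and 4452 to 4992 CPM in *Kat6b* null, and its median was -0.24 without the 3 libraries with *Xist*. Forebrain and midbrain patterning genes had 0 called of 40 by limma (3 lower and 3 higher at an unadjusted p under 0.05), a median of -0.11 and summed levels of 845 to 898 CPM in WT and 621 to 819 CPM in *Kat6b* null. Without *Kat6b* null replicate 1, which was lowest at 621 CPM, that median was -0.03, and without the 3 libraries with *Xist* -0.25. Other called genes known from neural tissue were *Cntfr*, the receptor of ciliary neurotrophic factor, and *Metrn*, a secreted factor of neural progenitors. *Cntfr* read 95.5, 107, 101 and 94.5 CPM in WT and 69.8, 79.2, 85.9 and 75.2 CPM in *Kat6b* null (log2 fold change -0.29, SE 0.0611, FDR=0.0232). *Metrn* read 306, 290.5, 281 and 274 CPM in WT and 245, 248, 262 and 237 CPM in *Kat6b* null (log2 fold change -0.19, SE 0.042, FDR=0.0324). Both were lower in every null library than in any WT library.

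**Figure D3:**
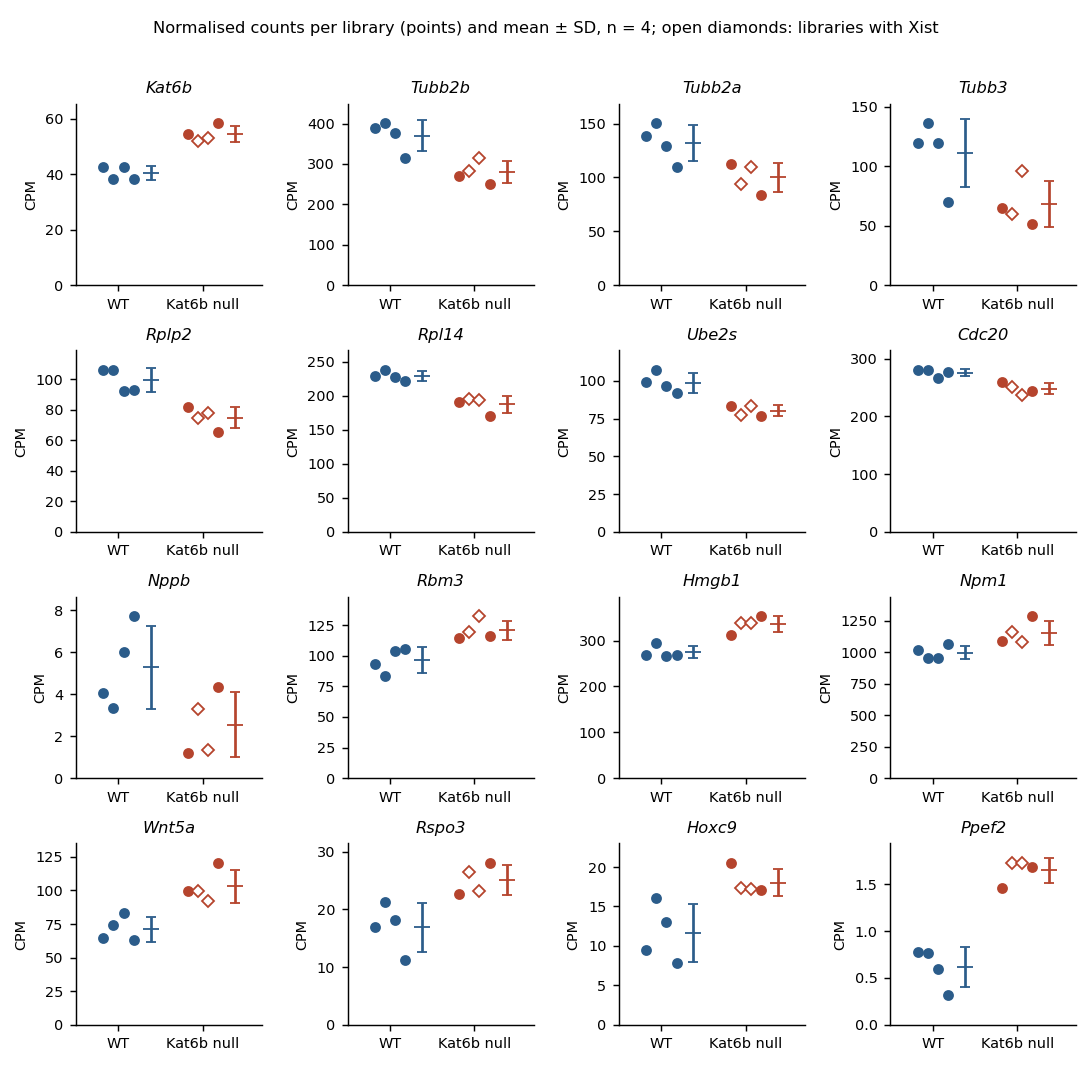
CPM of 16 genes in each of the 4 WT (blue) and 4 *Kat6b* null (red) libraries, with mean ± SD; open diamonds are null replicates 2 and 3, the libraries with *Xist*, and each y axis starts at 0. *Kat6b* and *Ppef2* are above WT in every null library, *Rplp2* and *Ube2s* below, and *Tubb3* and *Nppb* overlap.

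Actin and myosin genes gave 2 called genes of 37, both lower, against 0.338% lower and 0.169% higher of all genes. At an unadjusted p under 0.05, 10 were lower and 1 higher, against 6.49% and 5.59% of all genes. *Actg1*, the cytoplasmic gamma-actin, read 1123, 1138, 1091 and 1108 CPM in WT and 1054, 1019, 999 and 999 CPM in *Kat6b* null, and the groups did not overlap (log2 fold change -0.16, SE 0.0334, FDR=0.0232). *Myl6*, a non-muscle myosin light chain, read 68.5, 67.4, 61 and 66.3 CPM in WT and 63.3, 55.2, 52.9 and 49.3 CPM in *Kat6b* null, null replicate 1 lying within the WT range (log2 fold change -0.31, SE 0.0579, FDR=0.0153). Near-identical copies cover 86.6% of the *Actg1* transcript and 92% of the *Myl6* transcript. The list as a whole had a median of -0.03, which ranged from -0.05 without WT replicate 2 to -0.015 without WT replicate 4, and was -0.00039 without the 3 libraries with *Xist*. Of the called genes outside any list, *Dynlrb1*, a dynein light chain, and *Marcksl1*, an actin-binding substrate of protein kinase C, were also lower. Their log2 fold changes were -0.30 (FDR=0.0316) and -0.14 (FDR=0.0232).

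Genes of the anaphase-promoting complex and of mitosis moved in both directions, 2 lower and 1 higher of 48, against 0.338% and 0.169% of all genes. At an unadjusted p under 0.05, 9 were lower and 5 higher, against 6.49% and 5.59% of all genes. *Ube2s*, the ubiquitin-conjugating enzyme that extends chains for the complex (chr7:4795621-4815589), read 99, 107, 96.5 and 91.8 CPM in the 4 WT libraries and 83.5, 77.5, 83.7 and 76.6 CPM in the 4 *Kat6b* null libraries. All null libraries were below all WT libraries (log2 fold change -0.36, SE 0.0582, FDR=0.00441), and 80.7% of its transcript has near-identical copies. *Cdc20*, the co-activator of the complex, read 281, 280, 266 and 276 CPM in WT and 259.6, 251, 237 and 244 CPM in *Kat6b* null, again without overlap (log2 fold change -0.19, SE 0.0396, FDR=0.0277). *Mad2l1*, the spindle checkpoint protein that inhibits CDC20, read 136, 134, 132 and 133 CPM in WT and 148, 159, 146 and 167 CPM in *Kat6b* null, higher in every null library (log2 fold change 0.19, SE 0.0406, FDR=0.0316). *Mad2l1* was called in 1 of 8 fits without 1 library and *Cdc20* in 3. Replication licensing genes had 0 called of 25 by limma (4 lower and 0 higher at an unadjusted p under 0.05), with *Pcna*, the sliding clamp, at 312, 311, 300 and 301 CPM in WT and 295, 294, 273 and 271 CPM in *Kat6b* null and FDR=0.0632.

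Among signals, *Wnt5a* and *Rspo3* were higher. *Wnt5a*, a ligand of non-canonical Wnt signalling that drives elongation of the body axis and limb buds (chr14:28226495-28249405), read 64.3, 74.3, 82.9 and 62.8 CPM in the 4 WT libraries and 99.7, 99.8, 91.8 and 121 CPM in the 4 *Kat6b* null libraries. Every null library was above every WT library (log2 fold change 0.40, SE 0.0673, FDR=0.00474). The gene was called in 6 of 8 fits that each left out 1 library, with the highest FDR, 0.105, without WT replicate 4, and its FDR was 0.00169 without the 3 libraries with *Xist*, where that of *Rspo3* was 0.0754. *Rspo3*, an R-spondin that amplifies Wnt signals in the tail bud and placenta, read 16.9, 21.4, 18.2 and 11.2 CPM in WT and 22.7, 26.5, 23.1 and 28.1 CPM in *Kat6b* null, again without overlap (log2 fold change 0.57, SE 0.108, FDR=0.0153), and was called in 7 of 8 fits that each left out 1 library, with the highest FDR, 0.105, without WT replicate 4. Of 65 Wnt pathway genes these 2 were called higher and 0 lower, against 0.169% and 0.338% of all genes. At an unadjusted p under 0.05, 7 were lower and 5 higher, against 6.49% and 5.59% of all genes. The median of the list was -0.05, with -0.02 without *Kat6b* null replicate 3 and -0.01 without the 3 libraries with *Xist*. *Has2*, which makes the hyaluronan of the early heart and mesenchyme, also rose, from 41.1, 31.8, 39.8 and 45.3 CPM in WT to 51.5, 50.9, 48.1 and 56.1 CPM in the null (log2 fold change 0.32, FDR=0.0215). *Tle5*, a short member of the Groucho corepressors that blocks the others, fell (97.4, 115, 98.2 and 67.9 CPM in WT and 79.6, 64.5, 87.1 and 58.3 CPM in *Kat6b* null; log2 fold change -0.25, SE 0.048, FDR=0.0181). Null replicates 1 and 3 overlapped WT replicate 4. It was the only one of 32 Notch pathway and Groucho genes called.

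*Hox* genes had 1 called gene of 38, *Hoxc9*, which patterns the thoracic axis. It read 9.52, 16, 13 and 7.88 CPM in WT and 20.5, 17.4, 17.2 and 17 CPM in *Kat6b* null. The groups did not overlap, the highest WT library at 16 CPM and the lowest null library at 17 CPM (log2 fold change 0.53, SE 0.124, FDR=0.0461), and the call was kept in 1 of 8 fits without 1 library. Of the 38 genes, 31 had a positive log2 fold change, with a median of 0.18. At an unadjusted p under 0.05, 8 were higher and 2 lower, against 5.59% and 6.49% of all genes. Summed over the family the levels were 677 to 959 CPM in WT and 900.3 to 1120 CPM in *Kat6b* null, with overlap. The median of the family ranged from 0.07 without WT replicate 4 to 0.30 without WT replicate 2, and was 0.29 without the 3 libraries with *Xist*. Somite and presomitic mesoderm genes had *Rspo3* as the called gene of 32, 24 with a positive log2 fold change and a median of 0.09 (0.05 without *Kat6b* null replicate 1). *T* (brachyury), a transcription factor of the tail bud and notochord, read 4.67, 15.7, 16.5 and 2.63 CPM in WT and 24.4, 25.3, 14.3 and 30.6 CPM in *Kat6b* null and was not called (FDR=0.491). *Cdx2*, a regulator of posterior *Hox* genes, read 3.72, 11.8, 13.1 and 3.81 CPM in WT and 20.3, 21.9, 11.9 and 25.1 CPM in *Kat6b* null (FDR=0.407). For both genes WT replicates 1 and 4 were the lowest of the 8 libraries, and null replicate 3 lay within the WT range.

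**Figure D4:**
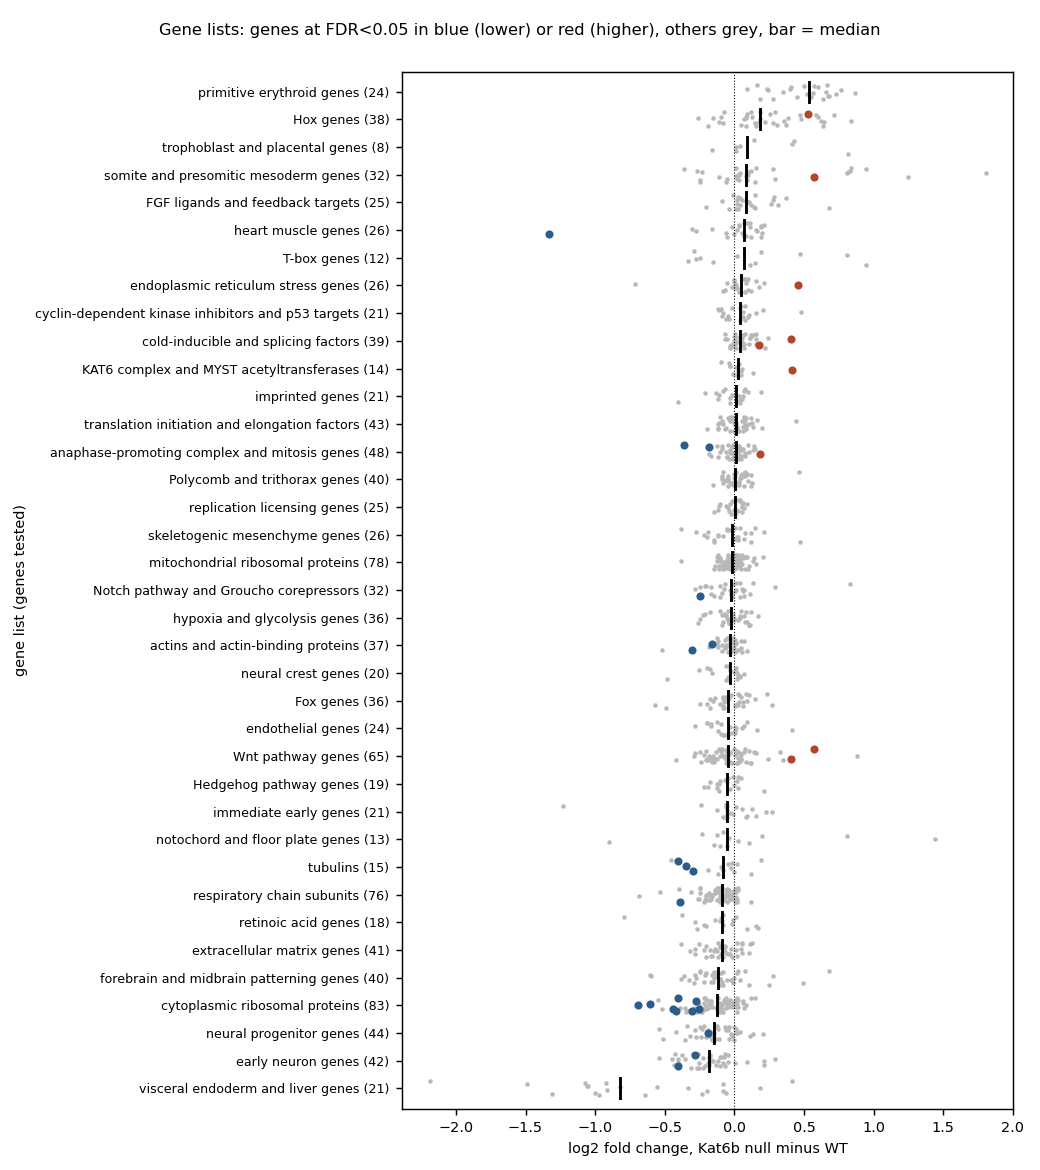
Each point is the log2 fold change of 1 gene between *Kat6b* null and WT (x axis), by gene list with the number of genes tested (y axis), ordered by the median (bar); blue and red points passed FDR<0.05. The lowest and highest medians, of visceral endoderm and liver genes (-0.82) and primitive erythroid genes (0.53), belong to lists with no called gene, and the cytoplasmic ribosomal proteins hold the most, 8.

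Of the 39 cold-inducible and splicing factors, *Rbm3* and *U2surp* were called higher and 0 lower, against 0.169% and 0.338% of all genes. At an unadjusted p under 0.05, 6 were higher and 0 lower, against 5.59% and 6.49% of all genes. *Rbm3*, a cold-inducible RNA-binding protein on the X chromosome (chrX:8004213-8012119), read 93.1, 83.1, 104 and 106 CPM in the 4 WT libraries and 114, 119.5, 132 and 116 CPM in the 4 *Kat6b* null libraries. All null libraries were above all WT libraries, with replicates 2 and 3, which carry *Xist*, the highest (log2 fold change 0.40, SE 0.0633, FDR=0.00441). Without the 3 libraries with *Xist* its log2 fold change was 0.33 with FDR=0.086. Near-identical copies cover 24.3% of its transcript. *U2surp*, a spliceosome protein, read 188, 188, 190.1 and 205 CPM in WT and 196, 209, 224 and 229.9 CPM in *Kat6b* null (log2 fold change 0.17, SE 0.0394, FDR=0.037), with overlap of null replicate 1 and WT replicate 4. *Hmgb1*, an abundant DNA-bending chromatin protein (chr5:148983445-149121815), read 268, 294, 266 and 269 CPM in WT and 313, 339, 339 and 353 CPM in *Kat6b* null, without overlap (log2 fold change 0.31, SE 0.0501, FDR=0.00441). The gene was called in 8 of 8 fits that each left out 1 library, with the highest FDR, 0.0484, without *Kat6b* null replicate 3, and 67.9% of its transcript has near-identical copies. *Npm1*, the nucleolar histone chaperone nucleophosmin, read 1016, 953, 957 and 1063 CPM in WT and 1089, 1158, 1082 and 1286 CPM in *Kat6b* null (log2 fold change 0.16, SE 0.0317, FDR=0.0203). *Anp32b*, *Ssb* (the La protein, which binds new RNA polymerase III transcripts) and *Fubp1* rose, with log2 fold changes of 0.20 (FDR=0.0232), 0.18 (FDR=0.0191) and 0.16 (FDR=0.0319). *Npm1*, *Anp32b* and *Ssb* were higher in every null library, and *Fubp1* in 3 of 4.

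*Dnajb9*, an endoplasmic reticulum co-chaperone, was the called gene of 26 endoplasmic reticulum stress genes. It read 12.8, 11.9, 11.8 and 12.7 CPM in WT and 17, 17.1, 16.4 and 14.3 CPM in *Kat6b* null, without overlap (log2 fold change 0.45, SE 0.0927, FDR=0.0232), and was called in 2 of 8 fits without 1 library. Of the 26, 20 had a positive log2 fold change, 6 had every null library above every WT library (against 3.17% of all genes), and the summed level of the list was 5070 to 5471 CPM in WT and 5608 to 5955 CPM in *Kat6b* null. The median log2 fold change was 0.05, with 0.03 without WT replicate 2, 0.08 without *Kat6b* null replicate 3 and 0.10 without the 3 libraries with *Xist*. *Dnajc3* and *Dnajc21*, further J-domain co-chaperones, rose by 0.27 (FDR=0.0316) and 0.26 (FDR=0.0367) on the log2 scale.

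The largest fold changes were in genes of low level. *Nppb*, the natriuretic peptide of embryonic ventricular muscle, was the called gene of 26 heart muscle genes, at 4.07, 3.34, 6 and 7.72 CPM in the 4 WT libraries and 1.22, 3.31, 1.35 and 4.37 CPM in the 4 *Kat6b* null libraries. Null replicate 4 lay within the WT range and null replicate 2 just below the lowest WT library (log2 fold change -1.33, SE 0.26, FDR=0.02), and the gene was called in 5 of 8 fits that each left out 1 library, with the highest FDR, 0.155, without *Kat6b* null replicate 3. The median of the heart list was 0.07, 0.00076 without *Kat6b* null replicate 4, 0.12 without *Kat6b* null replicate 3 and 0.34 without the 3 libraries with *Xist*. *Il11ra2*, an interleukin receptor gene with near-identical copies over 90.1% of its transcript, read 2.6, 1.97, 2.79 and 2.14 CPM in WT and 1.09, 1.21, 1.21 and 0.624 CPM in *Kat6b* null (log2 fold change -1.21, SE 0.282, FDR=0.0454), and was called in 0 of 8 fits without 1 library, with FDR up to 0.128 there. *Rasl2-9*, a RAN-like GTPase gene, read 11, 11.1, 10.1 and 7.29 CPM in WT and 7.29, 5.67, 4.85 and 4.55 CPM in *Kat6b* null (log2 fold change -0.98, SE 0.164, FDR=0.00474), null replicate 1 and WT replicate 4 reading alike. On the higher side *Ppef2*, a calcium-binding phosphatase of sensory neurons, read 0.778, 0.772, 0.592 and 0.322 CPM in WT and 1.46, 1.73, 1.73 and 1.68 CPM in *Kat6b* null, without overlap (log2 fold change 1.40, SE 0.32, FDR=0.0424), and was called in 1 of 8 such fits.

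Of the other called genes, *Rab1b*, a GTPase of transport from the endoplasmic reticulum to the Golgi, read 194, 183, 189 and 182 CPM in WT and 179.5, 173, 161 and 169 CPM in *Kat6b* null. All null libraries were below all WT libraries (log2 fold change -0.18, SE 0.0359, FDR=0.02). *Trim7*, an E3 ubiquitin ligase, read 134, 124, 133 and 124 CPM in WT and 152, 155, 146 and 149.9 CPM in *Kat6b* null, higher in every null library (log2 fold change 0.21, SE 0.0424, FDR=0.02). *Gm14326*, a predicted gene of chromosome 2, read 9.69, 7.97, 10.2 and 9.43 CPM in WT and 12.6, 12.8, 13.9 and 13.5 CPM in *Kat6b* null, also without overlap (log2 fold change 0.53, SE 0.0971, FDR=0.0132). The remaining lower genes, *Timm23*, *Ppia*, *Igdcc3*, *Cuta*, *Necab2*, *Mn1*, *Tspan9*, *Glrx3*, *Mfap2*, *Puf60*, *Ctsz*, *Limd2*, *Wsb2*, *Ubl5*, *Stum*, *Faap20*, *Cadm4*, *Arvcf*, *Apba2*, *Arhgdia* and *Ajuba*, had log2 fold changes from -0.43 (*Timm23*) to -0.14 (*Arhgdia*). The remaining higher genes, *Krcc1*, *Rbm12b2*, *Fam133b*, *Arfgap3* and *Ubxn2a*, had log2 fold changes from 0.23 (*Fam133b*) to 0.38 (*Rbm12b2*).

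The 22 lists with no called gene gave the following values. Their counts at an unadjusted p under 0.05 stand beside 6.49% lower and 5.59% higher of all genes tested. Primitive erythroid genes had a positive log2 fold change in 24 of 24, with a median of 0.53, and 0.04 without *Kat6b* null replicate 3. Visceral endoderm and liver genes had a negative one in 19 of 21, with a median of -0.82, and -0.19 without WT replicate 4. Without the 3 libraries with *Xist* these medians were 0.08 and -0.41. At an unadjusted p under 0.05, limma gave 3 higher of the erythroid and 3 lower of the visceral endoderm genes. Retinoic acid genes had 14 of 18 negative, 3 of them lower at an unadjusted p under 0.05, and their summed level was 1400 to 1520 CPM in WT and 1258 to 1376 CPM in *Kat6b* null, without overlap. Their median log2 fold change was -0.09, and -0.06 without the 3 libraries with *Xist*. Their members with the smallest p were *Crabp1*, a binding protein, at 472, 392, 416 and 494 CPM in WT and 303, 395, 328 and 335 CPM in *Kat6b* null (FDR=0.123), and *Cyp26b1*, a degrading enzyme, at 50.9, 39.6, 48.5 and 64.6 CPM in WT and 19.7, 47.1, 26.1 and 21 CPM in *Kat6b* null (FDR=0.292). FGF ligands and feedback targets had 21 of 25 positive and 5 higher at an unadjusted p under 0.05, led by *Fgf17*, a ligand of the midbrain-hindbrain boundary and tail bud, at 6.14, 9.69, 11.6 and 6.43 CPM in WT and 11.7, 17.3, 11.4 and 17.5 CPM in *Kat6b* null (FDR=0.104). In T-box genes, with 2 of 12 lower at an unadjusted p under 0.05, the smallest p was that of *Tbx1*, a regulator of the pharyngeal arches, at 25.8, 25.3, 24.5 and 31.8 CPM in WT and 18.5, 22.4, 18.9 and 24.5 CPM in *Kat6b* null, lower in every null library but not called (FDR=0.121). At an unadjusted p under 0.05 the other lists without a called gene held at most 8 lower and 11 higher genes, and their medians lay between -0.11 and 0.09, or between -0.25 and 0.31 without the 3 libraries with *Xist*.

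Genes on the X chromosome and beside *Kat6b* were counted separately. *Rbm3* was the only called gene of 501 X-linked genes tested. *Kdm6a* and *Eif2s3x*, which escape X inactivation, were not called, but read 87.2 and 93.6 CPM and 303 and 279 CPM in null replicates 2 and 3, above all of the other 6 libraries. Within 5 Mb on either side of *Kat6b*, 61 genes were tested, limma called 0, 2 had an unadjusted p under 0.05 and the median log2 fold change was 0.02. *Adk*, the adenosine kinase gene upstream of *Kat6b*, had the smallest p (log2 fold change 0.18, FDR=0.0631) and was named after its values were seen. Outside this window, the called genes *Wnt5a* (chr14:28226495-28249405), *Timm23*, *Ajuba* and *Dnajc3* also lie on chromosome 14. With *Kat6b* itself, 5 of the 72 called genes lay on this chromosome, as did 498 of all 14183 genes tested. A part of linkage to the allele in these changes was not tested.

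Tested directly against the *Kat6b* E/E point mutant, *Kat6b* null differed in 5 genes of 14183 (0.0353%), 2 (0.0141%) lower and 3 (0.0212%) higher in the null. *Tle5* (97.6 ± 19.2 CPM, mean ± SD, in the 4 point mutants) and *Tubb2b* (359 ± 45.7 CPM) were lower in the null, by log2 fold changes of -0.29 and -0.25. *Rbm3* (95.8 ± 19.3 CPM), *U2surp* (185 ± 5.17 CPM) and *Peli3*, an E3 ubiquitin ligase of immune signalling (6.41 ± 3.44 CPM), were higher, by 0.38, 0.22 and 0.87. The FDR of all 5 lay between 0.0241 and 0.0303. By limma the count was 0 without *Kat6b* E/E replicate 1, 2 or 4 (1028, 1189 and 1003 genes at an unadjusted p under 0.05) and 13 without *Kat6b* E/E replicate 3, and it was 3, 1 and 2 without *Kat6b* null replicates 2, 3 and 4. *Kat6b* itself was at 42.6 ± 3.33 CPM in the point mutant, against which the null had FDR=0.0801.

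Against the *Kat6a* null, *Kat6b* null differed in 232 genes (1.64%), 136 (0.959%) lower and 96 (0.677%) higher in *Kat6b* null. The 5 genes with the smallest p all had FDR=0.00341. *Ajuba*, a LIM protein of cell junctions, and *Commd3*, of the COMMD trafficking complex, were lower in *Kat6b* null, with log2 fold changes of -0.34 and -0.45. *Pde3b*, a phosphodiesterase, *Skida1* and *Fgfbp3*, an FGF-binding protein, were higher, with 0.34, 0.53 and 0.72. Of these, *Fgfbp3* read 28.7, 25.6, 29.9 and 20.8 CPM in *Kat6b* null and 15.6 ± 1.37 CPM in the *Kat6a* null. Its level in WT was 27.1 ± 0.674 CPM. Mean CPM in WT, *Kat6b* null and *Kat6a* null were 23, 22.4 and 31.2 for *Commd3* and 70.7, 76 and 59.5 for *Pde3b*. They were 207, 187 and 229 for *Ajuba* and 79.15, 64.3 and 45.25 for *Skida1*. Only *Ajuba* of the 5 was also called against WT (FDR=0.0374). Without the 3 libraries with *Xist*, which leaves 2 *Kat6b* null and 3 *Kat6a* null libraries, limma called 0 genes (1415 at an unadjusted p under 0.05). The count was 33, 60, 110 and 134 without *Kat6a* null replicates 1, 2, 3 and 4, and 477, 77, 30 and 99 without *Kat6b* null replicates 1, 2, 3 and 4, so its size depended on single libraries.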

How the data were processed

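The authors aligned read pairs of unstranded TruSeq libraries to mm39 with Rsubread and deposited whole-number counts per gene and library, made with featureCounts on RefSeq genes. From the deposited counts, protein-coding genes without Y-linked genes were filtered with edgeR 4.0.16 (filterByExpr) and scaled by TMM over all 24 E9.5 libraries, so that all groups shared 1 estimate of the spread. Following the study's methods, 4 surrogate variables, numeric factors for unexplained variation, were added to the genotype terms in limma 3.58.1 (voomLmFit, litter as a random block, robust eBayes, R 4.3.3), and genes at FDR<0.05 were called. CPM are counts scaled to the TMM-adjusted library size and, unlike log2 fold changes, are not adjusted for surrogate variables. The correlation within litters was 0.107. Replicates were separate embryos. Of 26411 genes in the files, 26359 matched RefSeq names on GRCm38, and the 52 others held 0.0978% of counts. Each library held 8401990 counts or more, and counting error weighs most on genes of few CPM. GC content and length came from GENCODE canonical transcripts on GRCm39. The fit was tested on simulated data.

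Named genes were *Kat6a* and *Kat6b*, the 15 lower and 10 higher called genes with the smallest p, every called member of a gene list or else up to 2 members with the smallest p, the genes called against *Kat6b* E/E and the 5 with the smallest p against *Kat6a* null. Other called genes and *Adk* were chosen after their values were seen, and 1 called gene is not reported by name here. The comparison, members and lists were chosen with earlier results of these data known. Alternatives were other numbers of surrogate variables, no litter or a replicate block, sample weights, edgeR's quasi-likelihood test, DESeq2 1.42.0 and its size factors, no low-count filter, all gene types, only these 8 libraries, *Xist* as a covariate and each library left out. After seeing the data, omission of the 3 libraries with *Xist* and adjustment for GC content, alone and with length, were added.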

Additional observations from a re-analysis of the deposited data

Results flagged for a closer look

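In groups of 4 libraries, 15 of 240 tests, each on 1 named gene in 1 genotype, found 1 library far from the other 3, and chance alone flags about 1 in 20 such groups. In WT replicate 4, *Igdcc3* read 776 CPM (others 951 to 986), *U2surp* 205 (188 to 190), *Eno1* 898 (780 to 798), *Pgk1* 169 (142 to 147) and *Apom*, an apolipoprotein of the visceral endoderm and liver, 5.04 (0.951 to 1.35). *Hmgb1* read 294 CPM in WT replicate 2 (265 to 269), and *Fgfbp3* 28.1 CPM in WT replicate 1 (26.6 to 26.9). In *Kat6b* null replicate 1, *Fubp1* read 579 CPM (636 to 645), *Hoxc9* 20.5 (17 to 17.4) and *Apom* 1.82 (0.63 to 0.746). In *Kat6b* null replicate 2, *Stum* read 15.7 CPM (12.4 to 12.9) and *Gli2* 89.5 (94.9 to 95.5). In *Kat6b* null replicate 3, *Dlx1* read 5.83 CPM (4.8 to 4.86) and *Nfe2*, an erythroid transcription factor, 11 (4.55 to 5.46). *Faap20* read 35 CPM in *Kat6b* null replicate 4 (40 to 41).

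*Xist*, a non-coding RNA outside the protein-coding genes tested, read 618 CPM in *Kat6b* null replicate 2 and 739 CPM in *Kat6b* null replicate 3, above every WT library.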

How the results depend on the processing

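Against WT, 72 genes were called. The count was 0 by limma without surrogate variables (1297 at an unadjusted p under 0.05), 29 with 2 and 169 with 6, 0 by edgeR's quasi-likelihood test without surrogate variables (1173), 154 by DESeq2, 3 with only these 8 libraries, 1 with sample weights, 44 without the 3 libraries with *Xist*, 30 after GC adjustment, and 11 (without WT replicate 4) to 99 (without *Kat6b* null replicate 1) with each library left out. With the replicate number as a block it was 116. The numbers did not pair the embryos, since correlations of same-numbered deviations were 0.0252, -0.0821, 0.0453 and 0.179, and not every library correlated best with its own number. No called gene changed direction under any alternative that gave it a value (67 of 72 by DESeq2). Against *Kat6b* E/E, 5 were called, with 0 by limma without and with 2 surrogate variables (614 and 1140 at an unadjusted p under 0.05), 0 by edgeR without (868), 0 with *Xist* as a covariate (1219), 0 with sample weights (606), 19 with 6 surrogate variables, 10 by edgeR's quasi-likelihood test, 43 by DESeq2, 23 with all gene types, 10 without the 3 libraries with *Xist*, 3 and 2 after adjustment for GC and for GC with length, and 0 to 13 with each library left out. Against *Kat6a* null, 232 were called, with 27 without and 66 with 2 surrogate variables, 48 by edgeR without, 426 by DESeq2, 378 with no filter, 15 with sample weights, 0 by limma without the 3 libraries with *Xist* (1415), and 30 to 477 with each library left out. The causes were not tested. The share of lower calls was 66.7% against WT, and 45.0% without *Kat6b* null replicate 4.

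Log2 fold changes against WT that changed sign belonged to genes not called: *Kat6a* (with each library left out, from -0.0044 without *Kat6b* null replicate 3 to 0.093 without WT replicate 3), and, without the 3 libraries with *Xist*, *Dlk1* 0.0046, *Kdm6a* -0.0596, *Commd3* 0.0067 and *Fgfbp3* -0.13. *Fgfbp3* also gave -0.056 and -0.015 with 0 and 2 surrogate variables, -0.049 by edgeR without them, -0.0056 with no filter, -0.063 with only these 8 libraries, -0.19 with *Xist* as a covariate, and -0.024, -0.018 and -0.070 without WT replicate 4, *Kat6b* null replicate 1 and *Kat6b* null replicate 3, against 0.069 without *Kat6b* null replicate 4. Genes of a few CPM, such as *Nppb* and *Ppef2*, are limited by depth.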
